A study of Anser cygnoides with 18 samples.

Results

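The livers of high-intake fed geese were compared with those of freely fed geese across all protein-coding genes and long noncoding RNAs (lncRNAs) with a measurable level. The 6 livers, 3 per feeding group, were part of a series of 18 RNA-seq libraries that also held abdominal and subcutaneous adipose tissue of the same 6 birds. All were Tianfu meat geese, males of a closed commercial population, killed at 145 days of age after a trial that began at 126 days, and 3 birds of each group had been drawn for sequencing. The study describes the breed as a hybrid of Anser anser and Anser cygnoides, mostly of Anser anser origin. The high-intake geese were force-fed, with meals of 130 g on the first day, raised by 5 g a day, at first 2 and later 3 and 4 meals a day. The control geese ate freely, so forced feeding and a higher intake went together and cannot be told apart. The diet of both groups held 8.09% crude protein and gave 14.29 MJ of metabolizable energy per kg. Feed was withheld from all birds for the night before slaughter, so the livers were sampled in the fasted state. Geese T1, T2 and T3 are the high-intake birds and C1, C2 and C3 the control birds, in this order wherever 3 values stand together. Genes entered the comparison where their mean level over the 6 livers was above 0.1 FPKM, a unit of sequenced fragments scaled for transcript length and library size. This held for 11752 of 14628 protein-coding genes and 812 of 1701 lncRNAs.

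In birds the liver, not the adipose tissue, makes most of the body's new fatty acids. Glucose carbon leaves the mitochondrion as citrate, is built into palmitate by fatty acid synthase, then lengthened, desaturated and esterified to triacylglycerol, which is either stored in lipid droplets or exported on lipoproteins that carry apolipoprotein B. Geese that are overfed store much of it, and the resulting fatty liver is known for regressing once feeding returns to normal.

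The libraries resembled each other in size and differed in spread. Between 12849 and 13147 genes were listed above 0 in each liver. The tissue was that of its label, with APOA1, FGB and other hepatocyte transcripts among the highest. Albumin was listed at 0 in every liver but T2, and TF and FGG at 0 in T2 alone. The 10 highest genes made up 28.2% of the summed FPKM in T2 and between 16.1% and 20.4% in the other livers. The high-intake livers were less alike (Pearson r across genes 0.949 to 0.957) than the control livers (0.977 to 0.979), and the SD within the group was larger among high-intake livers for 66.4% of genes. Skeletal muscle transcripts were low in the high-intake livers and uneven in the controls: the 8 markers tested summed to 3.2, 1.31 and 13.1 FPKM in T1, T2 and T3, against 90, 9.68 and 88.7 FPKM in C1, C2 and C3. None of the 8 passed the test, and their part in any result below was not tested. In whole tissue, fewer cells of a type and less RNA per cell cannot be told apart.

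The feeding groups differed in 257 protein-coding genes in the liver, 2.19% of those tested (limma on log2(FPKM + 1), Benjamini-Hochberg adjusted p under 0.05). Of these, 149 were higher (1.27%) and 108 lower (0.919%) in high-intake livers, and every one of the 257 separated the 3 high-intake livers from the 3 control livers without overlap. Such separation was common among all genes, where 1896 (16.1%) were higher and 1808 (15.4%) lower in every high-intake liver than in any control liver. The median change of a called gene was 1.24 on the log2 scale, while the median over all genes tested was 0.03. Changes are given on the log2(FPKM + 1) scale, which understates those of genes with low levels. Where the called share of a list is set below against 2.19% of all genes, that base counts both directions. The lists were chosen with earlier results of these data known, so their called shares are a description and no test. The number of calls changed with the bird left out. Without C1 no gene passed the threshold and 1960 had an unadjusted p under 0.05. Without C3 13 passed, without C2 39, without T1 61, without T2 220 and without T3 238. Each such fit also has 1 bird fewer, and the part of the bird itself was not tested.

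**Figure D1:**
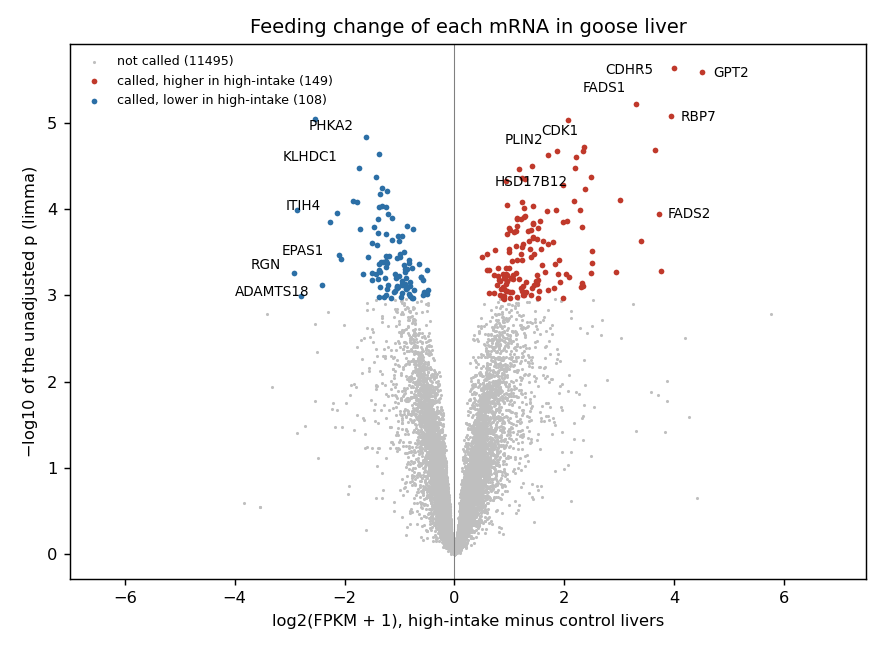
Change of each of the 11752 protein-coding genes tested in liver, with the log2 change of high-intake over control livers on the horizontal axis and −log10 of the unadjusted limma p on the vertical axis. The 149 genes called higher lie to the right and the 108 called lower to the left, with GPT2 farthest right and RGN farthest left among the called genes.

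Both desaturases of the polyunsaturated route and an enzyme of the elongation cycle rose. Of 25 genes of fatty acid synthesis, elongation and desaturation tested, 3 rose (12%, against 2.19% of all genes called), none fell and 22 did not pass the test. A change above 0 was seen in 19 of the 25, and the median was 0.40. FADS1, the desaturase that completes arachidonic acid, was at 436, 346 and 361 FPKM in the high-intake livers, against 24.8, 39.8 and 52 FPKM in the control livers, with 3 livers in each group. The change of FADS1 on the log2 scale was 3.31 ± 0.29 (SE, adjusted p = 0.018). FADS2, annotated as fatty acid desaturase 2-like and catalysing the first step of the same route, was at 297, 270.1 and 367 FPKM in the high-intake livers, against 9.06, 30.4 and 40.1 FPKM in the control livers. The change of FADS2 was 3.72 ± 0.50 (SE, adjusted p = 0.029). Both desaturases lie side by side on 1 scaffold, read away from each other, and every high-intake liver was far above the highest control; FADS2 shares its locus with RAB3IL1 on the other strand. HSD17B12, the ketoacyl reductase of the microsomal elongation cycle, stood at 643, 346 and 618 FPKM in the high-intake livers, against 109.8, 102 and 84.6 FPKM in the control livers. For HSD17B12 the log2 change was 2.38 ± 0.29 (SE, adjusted p = 0.027).

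The most abundant genes of the pathway varied widely between birds and were not called. FASN, the fatty acid synthase, was at 1292, 409.9 and 2360.5 FPKM in the high-intake livers, against 411, 505 and 149.9 FPKM in the control livers, and its change of 1.77 ± 0.71 (SE, adjusted p = 0.18) did not pass the test. Liver T2 lay inside the control range while T3 had the highest value. SCD, which makes oleate and palmitoleate, was at 1519, 283 and 1033 FPKM in the high-intake livers, against 98.9, 72.5 and 8.81 FPKM in the control livers, with no overlap between the groups but a control C3 far below the other controls, and its change of 4.20 ± 0.96 (SE, adjusted p = 0.071) missed the threshold. ELOVL6, the elongase of saturated chains, was at 509, 159 and 725 FPKM in the high-intake livers, against 342, 352 and 235 FPKM in the control livers, here with T2 lowest of all 6.

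Among genes of glycerolipid assembly and of lipid droplets, 1 of each list rose. AGPAT2, which adds the second acyl chain in glycerolipid synthesis, was at 114, 88.8 and 59 FPKM in the high-intake livers, against 16.2, 33.5 and 18.1 FPKM in the control livers. AGPAT2 thus differed by 1.93 ± 0.34 (SE, adjusted p = 0.044) on the log2 scale. It was the 1 gene called among 21 of triacylglycerol assembly (4.76%, against 2.19% of all genes), of which 11 had a change above 0 (median 0.02). DGAT2, the last enzyme of the route, was at 6.24, 13.3 and 22.6 FPKM in the high-intake livers, against 4.15, 4.66 and 1.97 FPKM in the control livers, and its change of 1.61 ± 0.45 (SE, adjusted p = 0.098) did not pass. Abundant members of that list overlapped between the groups. ACSL1, an acyl-CoA synthetase, averaged 444 ± 251 FPKM in high-intake livers and 654 ± 89.5 FPKM in control livers (SD). ACSL5, of the same family, averaged 406 ± 317 FPKM in high-intake livers and 187 ± 90.2 FPKM in control livers, and the acyltransferase GPAM 189 ± 113 FPKM in high-intake livers and 164 ± 19.1 FPKM in control livers. PLIN2, which coats lipid droplets, was at 207, 207 and 185 FPKM in the high-intake livers, against 68.2, 52.9 and 60.8 FPKM in the control livers, with the 3 high-intake livers close together and the 3 control livers close together. In log2 terms PLIN2 changed by 1.71 ± 0.18 (SE, adjusted p = 0.021). It was the 1 rise among 9 lipid droplet and lipolysis genes (11.1%), 7 of which had a change above 0 (median 0.51). The droplet protein CIDEA averaged 63 ± 21.6 FPKM in high-intake livers and 82.8 ± 11.7 FPKM in control livers and overlapped. HSD17B11, a droplet enzyme, overlapped as well, at 133 ± 38.9 FPKM in high-intake livers and 125 ± 24.8 FPKM in control livers.

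**Figure D2:**
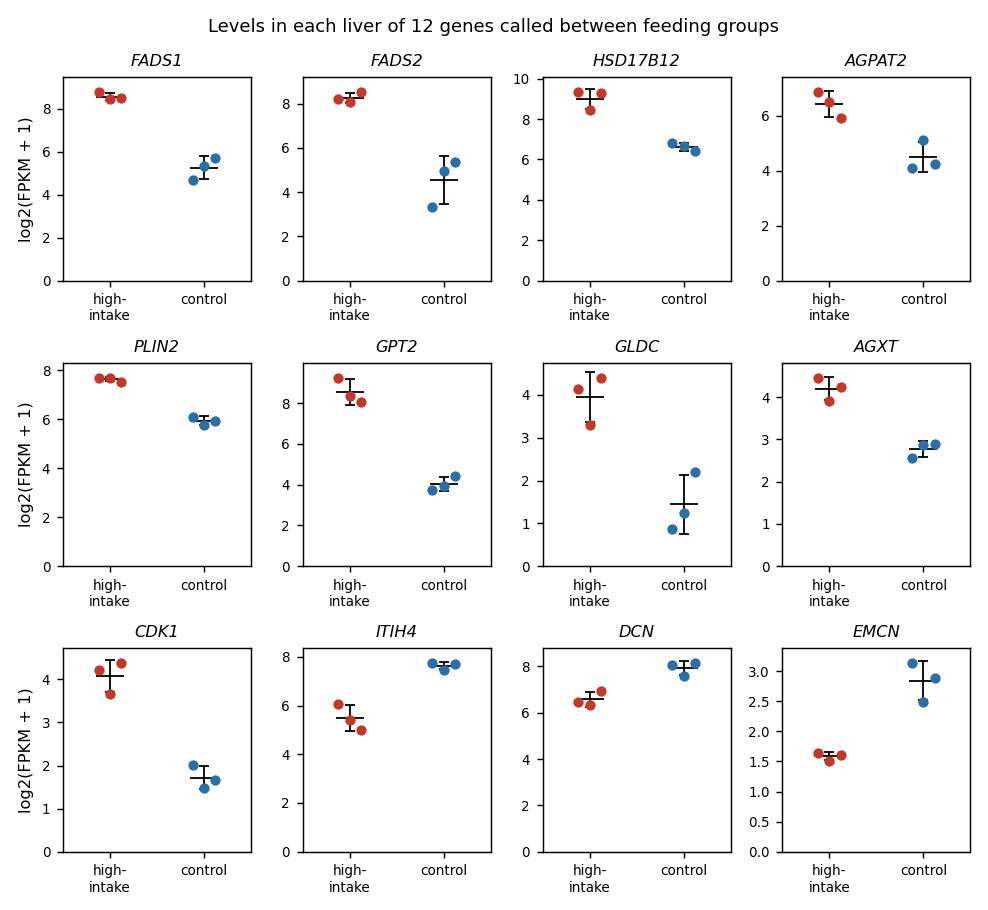
Level of 12 called genes in each liver, as log2(FPKM + 1), with the 3 high-intake livers left of the 3 control livers and bars for the group mean and its SD. FADS1, FADS2, HSD17B12, PLIN2 and GPT2 leave wide gaps with the high-intake livers on top, and ITIH4, DCN and EMCN have the control livers on top.

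Genes of lipoprotein export did not pass the test in either direction, with 8 of 12 above 0 and a median of 0.33. APOB, the structural protein of very low density lipoproteins, was at 1188, 1091 and 1640.3 FPKM in the high-intake livers, against 1550.0, 1528 and 1568 FPKM in the control livers. The change of APOB was -0.27 ± 0.27 (SE, adjusted p = 0.57). APOA1 was high in every liver and highest in T1, at 12547, 3764 and 3834 FPKM in the high-intake livers, against 3057, 3496 and 3846 FPKM in the control livers. APOH, a plasma glycoprotein that binds phospholipid, was lower in T1, T2 and T3 than in every control, at 2371, 1826 and 3299 FPKM in the high-intake livers, against 5452, 3514 and 5399.5 FPKM in the control livers, and did not pass (adjusted p = 0.17). In the uptake list 15 of 19 genes had a change above 0 (median 0.39) and 1 rose (5.26%, against 2.19% of all genes called). FABP1, a cytosolic carrier of fatty acids, was at 3.78, 2.16 and 5.32 FPKM in the high-intake livers and listed at 0 in all 3 control livers (adjusted p = 0.022), so no fold is given. A related gene, LOC106037939, annotated as fatty acid-binding protein of the liver, was much higher and overlapped between the groups, at 696, 2773 and 3537 FPKM in the high-intake livers, against 2012, 4142 and 3171 FPKM in the control livers. How reads were shared between the pair cannot be told from the files. The most abundant uptake genes overlapped as well. DBI, the acyl-CoA binding protein, averaged 4364 ± 1425 FPKM in high-intake livers and 3284 ± 539.8 FPKM in control livers. The fatty acid transporter CD36 averaged 231 ± 123 FPKM in high-intake livers and 248 ± 11.5 FPKM in control livers, and the lipase LIPI 191 ± 54.9 FPKM in high-intake livers and 137 ± 19.6 FPKM in control livers.

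No gene of fatty acid oxidation and ketone body formation was called, although 28 of 33 had a change above 0, with a median of 0.36. ACAA2, the thiolase that ends mitochondrial beta-oxidation, was the nearest of the abundant members, at 411, 255 and 292 FPKM in the high-intake livers, against 159, 196 and 165 FPKM in the control livers (adjusted p = 0.098). SCP2, of peroxisomal oxidation, averaged 638 ± 221 FPKM in high-intake livers and 496 ± 78.6 FPKM in control livers and overlapped. HSD17B4 of the same route also overlapped, at 361 ± 88.2 FPKM in high-intake livers and 277 ± 52.2 FPKM in control livers. Among genes named after their values were seen, MLYCD, which removes the malonyl-CoA that blocks entry of fatty acids into mitochondria, was at 16.1, 14.8 and 19.3 FPKM in the high-intake livers, against 6.88, 7.02 and 6.12 FPKM in the control livers. For MLYCD the log2 change was 1.20 ± 0.16 (SE, adjusted p = 0.029). PHYH, which starts the peroxisomal breakdown of phytanic acid, was at 94.3, 70.3 and 52.6 FPKM in the high-intake livers, against 21.8, 25.6 and 19.7 FPKM in the control livers. PHYH thus differed by 1.62 ± 0.24 (SE, adjusted p = 0.033) on the log2 scale. ALDH9A1, an aldehyde dehydrogenase of carnitine synthesis, was at 344, 185 and 198 FPKM in the high-intake livers, against 45.4, 58.8 and 49.3 FPKM in the control livers. In log2 terms ALDH9A1 changed by 2.17 ± 0.27 (SE, adjusted p = 0.029). As in every called gene, the 3 separated the groups with no overlap.

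Cholesterol synthesis had no called gene, 15 of 22 above 0 and a median of 0.16, which turned to -0.01 without C1. HMGCS1, which condenses acetyl units early in the pathway, was at 132, 135 and 554 FPKM in the high-intake livers, against 405, 438 and 1264 FPKM in the control livers. T3 and C3 were high within their groups. MSMO1, a demethylating enzyme, averaged 182 ± 90 FPKM in high-intake livers and 301 ± 123 FPKM in control livers, and INSIG1, which holds back the pathway's activators, 78.3 ± 25.5 FPKM in high-intake livers and 98.4 ± 46.3 FPKM in control livers. Among 23 bile acid and sterol transport genes 1 rose (4.35%, against 2.19% of all genes called), with 14 above 0 and a median of 0.31. This was AKR1D1, the reductase that shapes the steroid ring of bile acids, at 248, 264 and 269 FPKM in the high-intake livers, against 121, 89.2 and 80.6 FPKM in the control livers, close to uniform within each group. The change of AKR1D1 was 1.44 ± 0.21 (SE, adjusted p = 0.031). CYP7B1, an enzyme of the alternative route to bile acids, was at 139.9, 143 and 142 FPKM in the high-intake livers, against 71.9, 103 and 98.2 FPKM in the control livers, above every control and not past the threshold (adjusted p = 0.11), and the bile salt pump ABCB11 overlapped (76.8, 61.6 and 146 FPKM in high-intake and 87.5, 126 and 115 FPKM in control livers).

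The largest rise of a named gene was that of an amino acid enzyme. GPT2, the mitochondrial alanine aminotransferase that interconverts alanine and pyruvate, was at 605, 326 and 261 FPKM in the high-intake livers, against 12.3, 14.3 and 20.4 FPKM in the control livers. For GPT2 the log2 change was 4.52 ± 0.34 (SE, adjusted p = 0.015). Even its lowest high-intake liver, T3, was far above the highest control, C3. Of 42 genes of amino acid breakdown and nitrogen handling, 5 rose (11.9%, against 2.19% of all genes called), none fell and 37 did not pass. A change above 0 was seen in 35, and the list's median was 0.59, against 0.03 for all genes. GLDC, the decarboxylase of the glycine cleavage system, was at 16.7, 8.81 and 20.1 FPKM in the high-intake livers, against 0.838, 1.35 and 3.63 FPKM in the control livers, and its partner GCSH was not called. GLDC thus differed by 2.51 ± 0.41 (SE, adjusted p = 0.04) on the log2 scale. GCSH averaged 267 ± 29.4 FPKM in high-intake livers and 331 ± 38.4 FPKM in control livers. AGXT, which moves an amino group from alanine to glyoxylate, was at 20.9, 14 and 17.8 FPKM in the high-intake livers, against 4.91, 6.25 and 6.4 FPKM in the control livers. In log2 terms AGXT changed by 1.43 ± 0.20 (SE, adjusted p = 0.029).

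Branched-chain amino acid enzymes were the remaining members that rose. IVD, of leucine breakdown, was at 7.14, 7.18 and 5.24 FPKM in the high-intake livers, against 1.86, 2.1 and 2.24 FPKM in the control livers. The change of IVD was 1.29 ± 0.17 (SE, adjusted p = 0.029). HIBADH, of valine breakdown, was at 25.8, 21.9 and 25.9 FPKM in the high-intake livers, against 11.1, 12.7 and 13.1 FPKM in the control livers; its locus overlaps LOC106030239 on the same strand, so reads may be shared between them. For HIBADH the log2 change was 0.94 ± 0.16 (SE, adjusted p = 0.043). Both genes had their 3 control values within a narrow range, below all high-intake livers. GLUD1, the glutamate dehydrogenase, averaged 542 ± 132 FPKM in high-intake livers and 448 ± 78.4 FPKM in control livers and overlapped. In the list of serine, one-carbon and amino acid synthesis no gene was called, 11 of 20 were above 0 and the median was 0.06. PSPH, the last enzyme of serine synthesis, averaged 1346 ± 310.3 FPKM in high-intake livers and 1309 ± 508 FPKM in control livers. AHCY, of the methionine cycle, averaged 847 ± 503 FPKM in high-intake livers and 536 ± 85 FPKM in control livers. MAT1A, of the same cycle, stood at 623 ± 144 FPKM in high-intake livers and 624 ± 226 FPKM in control livers.

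No gene of the citric acid cycle or of oxidative phosphorylation was called. In the citric acid cycle list 28 of 32 genes had a change above 0 (median 0.54), 9 had an unadjusted p under 0.05 in the upward direction and none passed after adjustment. Among all 11752 genes tested, 1510 had such a p in that direction, and 52.9% were above 0. MDH2, the mitochondrial malate dehydrogenase, came closest of the named genes, at 227, 82.1 and 146 FPKM in the high-intake livers, against 30.9, 47 and 31.2 FPKM in the control livers, with no overlap and a change of 1.94 ± 0.38 (SE, adjusted p = 0.051). Its cytosolic counterpart MDH1 averaged 452 ± 245 FPKM in high-intake livers and 269 ± 60.9 FPKM in control livers and overlapped. PDHB, a pyruvate dehydrogenase subunit, averaged 382 ± 99.2 FPKM in high-intake livers and 333 ± 78.1 FPKM in control livers, and the pyruvate carrier MPC1 625 ± 216 FPKM in high-intake livers and 541 ± 67.7 FPKM in control livers. Nuclear genes of oxidative phosphorylation were above 0 in 48 of 52 cases (median 0.39), with none called and 13 at an unadjusted p under 0.05, against the same 1510 of 11752 upward. COX7C of the terminal oxidase averaged 5129 ± 1363 FPKM in high-intake livers and 3993 ± 502 FPKM in control livers. NDUFA1 of the first complex was carried by T1, at 5229.9, 1315 and 1225 FPKM in high-intake and 1684, 1556 and 1169 FPKM in control livers. COX6A1 averaged 943 ± 232 FPKM in high-intake livers and 735 ± 42 FPKM in control livers. The 13 proteins encoded by the mitochondrial genome itself were all below 0 (median -0.32), with none called or at an unadjusted p under 0.05. T2 was the lowest liver and T3 the highest for the 3 most abundant, and without T2 the list's median was 0.03. COX1 was at 1160.4, 828 and 2089.5 FPKM in high-intake and 1978, 1884 and 1361 FPKM in control livers. COX3 was at 529, 434 and 1271 FPKM in high-intake and 1242, 1202 and 921 FPKM in control livers. COX2, the highest of all, was at 4171, 2052 and 7709.7 FPKM in high-intake and 4659, 4852 and 4458 FPKM in control livers.

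In the 3 lists of sugar metabolism no gene was called. Outside them ADPGK, an ADP-dependent glucokinase chosen after its values were seen, rose, at 8.06, 6.52 and 5.48 FPKM in the high-intake livers, against 2.44, 1.35 and 1.84 FPKM in the control livers (adjusted p = 0.032), with LOC106044201 antisense to it; the fall of PHKA2, a subunit of phosphorylase kinase, is given with the other falls. Of 22 glycolytic genes 14 were above 0 (median 0.22). The abundant members ENO1 and GAPDH overlapped between the groups. ENO1 averaged 1550.2 ± 710.4 FPKM in high-intake livers and 1870.1 ± 212 FPKM in control livers, and GAPDH 809 ± 453 FPKM in high-intake livers and 544 ± 259.6 FPKM in control livers. In gluconeogenesis and glycogen metabolism 9 of 16 were above 0 (median 0.04). PCK1, the enzyme that commits carbon to glucose, was at 383, 3.96 and 319 FPKM in the high-intake livers, against 33.3, 36.4 and 74.5 FPKM in the control livers, so that T1 and T3 were above and T2 below all controls. G6PC, which releases free glucose, averaged 274 ± 221 FPKM in high-intake livers and 232 ± 93 FPKM in control livers. PGM1, which links glucose phosphate to glycogen, was at 178, 77.7 and 83.2 FPKM in high-intake and 87.9, 165 and 64.1 FPKM in control livers. The change of PGM1 was 0.10 ± 0.44 (SE, adjusted p = 0.9). In the pentose phosphate pathway 7 of 10 genes were above 0 (median 0.48) and none was called. TKT, the transketolase, averaged 135 ± 38.9 FPKM in high-intake livers and 108 ± 36.7 FPKM in control livers. RPE, an epimerase, averaged 132 ± 45 FPKM in high-intake livers and 102 ± 13.7 FPKM in control livers, and PRPS2, which makes the ribose donor of nucleotides, 119.7 ± 47.1 FPKM in high-intake livers and 135 ± 41.9 FPKM in control livers.

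Of 54 genes of endoplasmic reticulum folding, export and stress, 47 had a change above 0 (median 0.40) and 2 rose, 3.70% of the list against 2.19% of all genes. SEC23A, a coat protein of vesicles that leave the endoplasmic reticulum, was at 62.6, 60 and 88.5 FPKM in the high-intake livers, against 33.3, 33.1 and 32.7 FPKM in the control livers. SEC23A thus differed by 1.05 ± 0.19 (SE, adjusted p = 0.047) on the log2 scale. DERL1, which helps to move misfolded proteins out for degradation, was at 61.5, 57.8 and 39.5 FPKM in the high-intake livers, against 20.1, 26.3 and 18.9 FPKM in the control livers. In log2 terms DERL1 changed by 1.23 ± 0.23 (SE, adjusted p = 0.047). The 3 SEC23A controls were almost equal, and no high-intake liver reached down to them. The abundant members were not called. SEC61G of the translocation channel averaged 872 ± 166 FPKM in high-intake livers and 618 ± 49.5 FPKM in control livers. PDIA3, a disulfide isomerase, averaged 277 ± 31.1 FPKM in high-intake livers and 209 ± 40.4 FPKM in control livers, and the chaperone HSP90B1 321 ± 163 FPKM in high-intake livers and 321 ± 99.3 FPKM in control livers. The next 3 genes are not members of the list. TMED3, a cargo adaptor between the endoplasmic reticulum and the Golgi, was at 36.1, 57 and 17.5 FPKM in the high-intake livers, against 4.25, 7.61 and 3.94 FPKM in the control livers. The change of TMED3 was 2.49 ± 0.43 (SE, adjusted p = 0.043). GOLM1, a Golgi membrane protein, was at 29.9, 120.5 and 37.4 FPKM in the high-intake livers, against 6.54, 7.21 and 4.1 FPKM in the control livers, with T2 highest in both. For GOLM1 the log2 change was 2.94 ± 0.50 (SE, adjusted p = 0.043). GOLM1 overlaps NAA35 on the other strand. COPA, the coat subunit of vesicles that return to the endoplasmic reticulum, chosen after its values were seen, was at 32.6, 26.8 and 30 FPKM in the high-intake livers, against 12.1, 13.3 and 13.5 FPKM in the control livers. COPA thus differed by 1.14 ± 0.15 (SE, adjusted p = 0.029) on the log2 scale.

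Among lysosomal genes 34 of 42 were above 0, with a median of 0.50, and 2 rose (4.76%, against 2.19% of all genes, of which 52.9% were above 0). None of the 42 was called without a filter on low values, or with any liver but T3 left out. CTSC, a cathepsin that activates other proteases, was at 127, 131 and 148 FPKM in the high-intake livers, against 75.9, 70.1 and 67.9 FPKM in the control livers. In log2 terms CTSC changed by 0.91 ± 0.17 (SE, adjusted p = 0.046). CTSZ was at 108, 116 and 62.7 FPKM in the high-intake livers, against 37.1, 30.3 and 27.9 FPKM in the control livers. The change of CTSZ was 1.52 ± 0.27 (SE, adjusted p = 0.044). CTSB, the most abundant cathepsin of the high-intake livers, was above every control without passing the test (488, 257 and 234 FPKM in the high-intake livers, against 179, 180.0 and 154 FPKM in the control livers, adjusted p = 0.15). CTSL averaged 191 ± 82.9 FPKM in high-intake livers and 249 ± 36.2 FPKM in control livers and overlapped. LAMP1, a membrane glycoprotein of the lysosome, averaged 214 ± 36.3 FPKM in high-intake livers and 271 ± 24 FPKM in control livers.

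Genes of cell division formed the largest group of calls. Of 63 cell cycle and mitosis genes 16 rose and none fell, 25.4% of the list against 2.19% of all genes; 59 were above 0 and the median was 0.77. CDK1, the kinase that drives entry into mitosis, was at 17.6, 11.6 and 19.7 FPKM in the high-intake livers, against 3.02, 1.8 and 2.17 FPKM in the control livers. For CDK1 the log2 change was 2.36 ± 0.24 (SE, adjusted p = 0.021). SPC25, a part of the kinetochore that holds chromosomes to the spindle, was at 10.9, 14.6 and 16.8 FPKM in the high-intake livers, against 2.6, 0.82 and 1.89 FPKM in the control livers. SPC25 thus differed by 2.49 ± 0.29 (SE, adjusted p = 0.024) on the log2 scale. RRM2, the small subunit of ribonucleotide reductase, was at 9.98, 3.25 and 3.33 FPKM in the high-intake livers, against 0.269, 0.378 and 0.51 FPKM in the control livers. In log2 terms RRM2 changed by 2.09 ± 0.36 (SE, adjusted p = 0.044). TOP2A, the topoisomerase that separates sister chromatids, was at 6.69, 3.75 and 7 FPKM in the high-intake livers, against 1.47, 0.668 and 1.09 FPKM in the control livers. The change of TOP2A was 1.69 ± 0.26 (SE, adjusted p = 0.033). As for every gene called higher, all 3 high-intake livers exceeded all 3 controls in each, and the levels stayed low throughout.

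The other members that rose included kinases of the spindle and its checkpoint. AURKA was at 3.71, 2.63 and 6.37 FPKM in high-intake and 1.17, 0.467 and 0.588 FPKM in control livers. PLK1 was at 2.22, 0.995 and 1.75 FPKM in high-intake and 0.236, 0.314 and 0.24 FPKM in control livers. TTK was at 1.7, 1.35 and 2 FPKM in high-intake and 0.395, 0.173 and 0.429 FPKM in control livers. BUB1B, like TTK a guard of chromosome attachment, was at 1.94, 1.48 and 2.16 FPKM in high-intake and 0.442, 0.116 and 0.367 FPKM in control livers. Cyclins and spindle motors rose as well. CCNA2, the cyclin of replication, was at 4.87, 2.82 and 5.68 FPKM in high-intake and 1.54, 1.12 and 1.1 FPKM in control livers. CCNB3 was at 2, 1.13 and 1.33 FPKM in high-intake and 0.475, 0.353 and 0.298 FPKM in control livers. KIF11, the motor that pushes spindle poles apart, was at 4.18, 3.57 and 4.83 FPKM in high-intake and 1.72, 0.878 and 1.19 FPKM in control livers, and its relative KIF15 averaged 2.23 ± 0.239 FPKM in high-intake livers and 0.827 ± 0.264 FPKM in control livers. Chromosome and spindle proteins completed the group. NCAPH of the condensin complex was at 4.04, 2.5 and 3.25 FPKM in high-intake and 1.11, 0.645 and 1.1 FPKM in control livers. CKAP2 was at 3.28, 2.15 and 4.69 FPKM in high-intake and 1, 0.303 and 0.576 FPKM in control livers. The proliferation marker MKI67 was at 1.75, 1.57 and 2.05 FPKM in high-intake and 0.703, 0.444 and 0.768 FPKM in control livers. Changes of these 11 genes lay between 0.77 for MKI67 and 1.55 for AURKA. CDCA3 was also called, at 21.8, 6.07 and 7.72 FPKM in high-intake and 1.3, 1.41 and 1.05 FPKM in control livers (adjusted p = 0.045). Its values were nearly those of P2RX2, a channel gene on another scaffold, at 22.2, 6.13 and 7.7 FPKM in high-intake and 1.41, 1.41 and 1.06 FPKM in control livers, so its identity is uncertain. Of the list's most abundant members, PCNA, the sliding clamp of replication, was above every control without passing, at 54.6, 40.4 and 59.5 FPKM in high-intake and 32.2, 36 and 34.4 FPKM in control livers. RRM1, the large subunit of ribonucleotide reductase, averaged 10.2 ± 3.59 FPKM in high-intake livers and 9.7 ± 1.6 FPKM in control livers, and SMC2 of the condensins 11.8 ± 2 FPKM in high-intake livers and 9.13 ± 1.86 FPKM in control livers.

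The count of cell cycle calls changed with the liver left out, while the direction of the list's median did not. Without C1 or without C3 none of the 63 genes was called, and without T2 23 were, whereas the list's median stayed between 0.70 and 0.83 over the 6 fits that left out 1 liver. Beside these calls, lymphocyte markers had 5 of 16 members above 0 and a median of -0.22, and macrophage markers 6 of 9 and 0.17. The lymphocyte markers summed to 273, 337 and 97.8 FPKM in T1, T2 and T3 and 95.5, 94.7 and 186 FPKM in C1, C2 and C3. JCHAIN, the joining chain of secreted antibodies, made up most of this in every liver but C1 (236, 302 and 77.9 FPKM in high-intake and 43.8, 52.5 and 132 FPKM in control livers). The part of these markers in the cell cycle result was not tested.

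**Figure D3:**
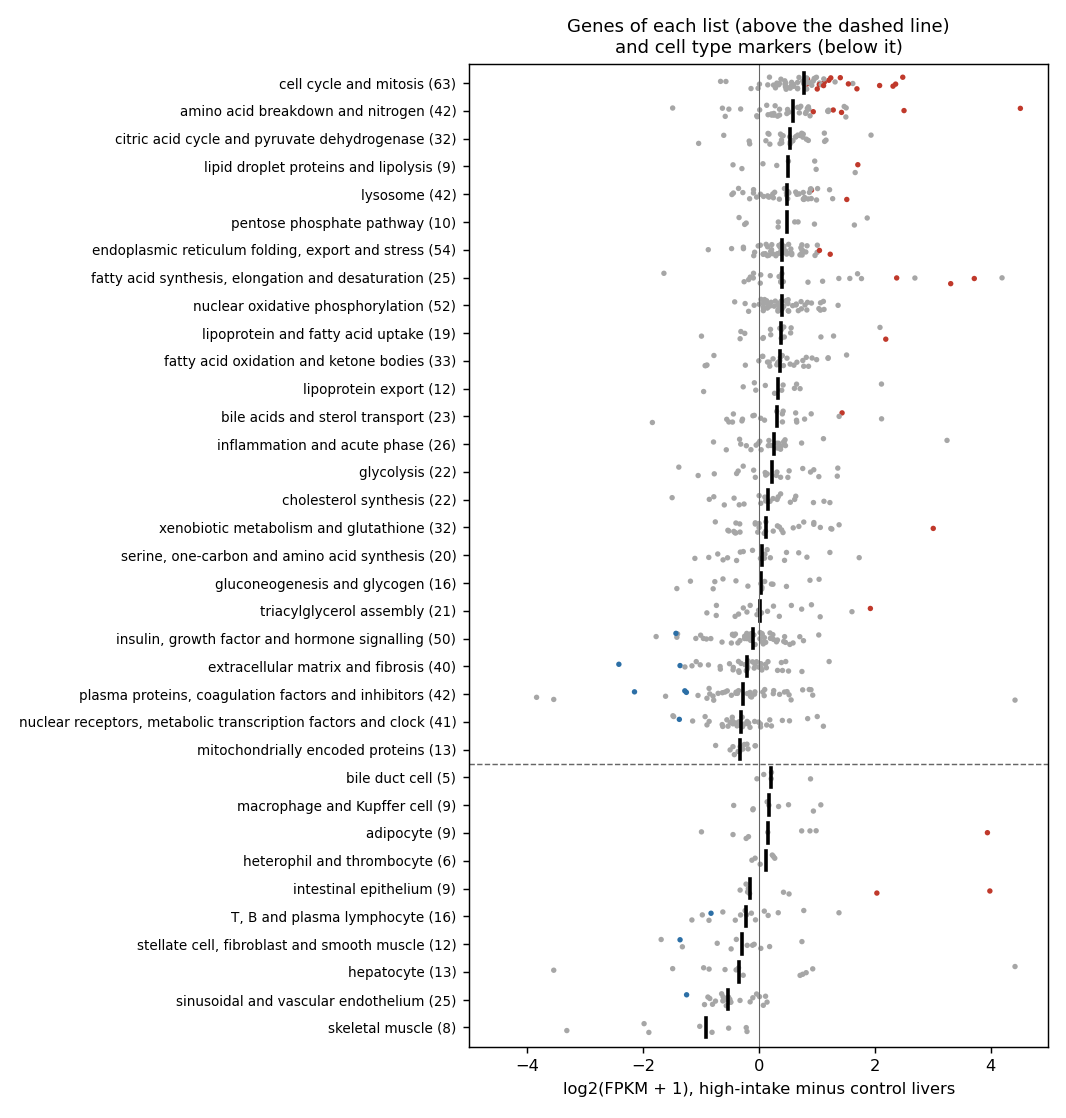
Log2 change, high-intake minus control, of each member of the gene lists and the marker lists, with the number tested in brackets, 1 point per gene, black bars at the list medians, and called genes in red (higher) or blue (lower). Cell cycle has the highest median (0.77), followed by amino acid breakdown (0.59), and skeletal muscle markers the lowest (-0.91).

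Some of the largest rises were of genes best known from other organs. CDHR5, a cadherin that links the microvilli of brush borders, was at 13, 28.1 and 19.3 FPKM in the high-intake livers, against 0.61, 0.0282 and 0.245 FPKM in the control livers. For CDHR5 the log2 change was 3.99 ± 0.30 (SE, adjusted p = 0.015). Its binding partner CDHR2, annotated as cadherin-related family member 2-like, was at 10.3, 4.88 and 5.64 FPKM in the high-intake livers, against 0.998, 1.62 and 0.214 FPKM in the control livers. CDHR2 thus differed by 2.04 ± 0.35 (SE, adjusted p = 0.043) on the log2 scale. The controls were close to 0 for CDHR5 and the lowest high-intake liver, T1, was far above them. Of the 9 markers of intestinal epithelium tested 4 were above 0 (median -0.16), and these cadherins were the members called (22.2%, against 2.19% of all genes). VIL1, the villin of brush borders, was above every control without a call, at 0.32, 0.0901 and 1.29 FPKM in high-intake and 0.0235, 0 and 0.0846 FPKM in control livers. CDX1 was listed at 0 in all 6 livers, and MUC2 and FABP2 lay under the filter. RBP7, a cellular retinol-binding protein abundant in fat, was at 35.5, 15.1 and 34.2 FPKM in the high-intake livers, against 0.837, 0.354 and 1.27 FPKM in the control livers, with an overlapping antisense gene, LOC106044297. In log2 terms RBP7 changed by 3.95 ± 0.36 (SE, adjusted p = 0.018). The other adipocyte markers were not called (11.1% of the list called, against 2.19% of all genes), and 5 of the 9 tested were above 0 (median 0.16).

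Several further rises had no common list. APCDD1, an inhibitor of Wnt signals, was at 13.8, 14.8 and 6.01 FPKM in the high-intake livers, against 1.66, 2.4 and 0.383 FPKM in the control livers. The change of APCDD1 was 2.34 ± 0.42 (SE, adjusted p = 0.045). RPS6KL1, a kinase-like protein, was at 16.2, 7.49 and 4.67 FPKM in the high-intake livers, against 1.03, 0.442 and 0.558 FPKM in the control livers. For RPS6KL1 the log2 change was 2.50 ± 0.39 (SE, adjusted p = 0.037). CYP2W1, annotated as cytochrome P450 2W1-like, was at 29.8, 67.4 and 48.3 FPKM in the high-intake livers, against 7.6, 2.82 and 5.01 FPKM in the control livers. It was the 1 rise among 32 genes of xenobiotic and glutathione metabolism (3.1%, against 2.19% of all genes called), of which 20 were above 0 (median 0.12). CYP2W1 thus differed by 3.01 ± 0.38 (SE, adjusted p = 0.029) on the log2 scale. Groups did not overlap in any of the 3, as in every called gene. Among the abundant members of that list MGST1 was above every control, at 812, 705 and 977 FPKM in high-intake and 495, 577 and 568 FPKM in control livers (adjusted p = 0.18). SOD1, the superoxide dismutase, averaged 735 ± 243 FPKM in high-intake livers and 895 ± 134 FPKM in control livers and overlapped, and GPX1 743 ± 336 FPKM in high-intake livers and 689.6 ± 127 FPKM in control livers. LOC106049823, annotated as an inhibin beta C chain-like gene, a ligand of the TGF-beta family made by liver, was chosen after its values were seen; it was at 518, 128 and 155 FPKM in the high-intake livers, against 25.4, 18.4 and 16.6 FPKM in the control livers. In log2 terms LOC106049823 changed by 3.40 ± 0.51 (SE, adjusted p = 0.033). TMEM45A, PDLIM1 and EAF2, likewise chosen after their values were seen, rose by 1.86, 2.07 and 2.33.

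RGN had the largest fall of the called genes, and 3 plasma protein genes were among the smaller ones. RGN, the calcium-binding enzyme regucalcin, was at 87.1, 34.8 and 153 FPKM in the high-intake livers, against 697, 618 and 488 FPKM in the control livers, with no overlap and T2 lowest. The change of RGN was -2.92 ± 0.50 (SE, adjusted p = 0.043). ITIH4, a heavy chain of the plasma inter-alpha-trypsin inhibitor, was at 65.9, 41.8 and 30.7 FPKM in the high-intake livers, against 211, 177 and 207 FPKM in the control livers. For ITIH4 the log2 change was -2.15 ± 0.28 (SE, adjusted p = 0.029). ITIH3, of the same family, was at 293, 346 and 282 FPKM in the high-intake livers, against 660.2, 653 and 946 FPKM in the control livers. ITIH3 thus differed by -1.28 ± 0.24 (SE, adjusted p = 0.049) on the log2 scale. CFI, the complement protease that inactivates C3b, was at 114, 109.9 and 130.5 FPKM in the high-intake livers, against 258, 232 and 375 FPKM in the control livers. In log2 terms CFI changed by -1.25 ± 0.23 (SE, adjusted p = 0.048). The last 3 were the falls among 42 plasma protein genes (7.14%, against 0.919% of all genes called lower and 2.19% in either direction). Of the 42, 15 were above 0 (median -0.27) and none was called higher. Their summed level was nevertheless higher in each high-intake liver, at 37878, 41951 and 31142 FPKM in T1, T2 and T3, against 27813, 29994 and 29410 FPKM in C1, C2 and C3. ITIH3 and CFI each overlap an antisense gene.

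Of the most abundant plasma proteins none was called. FGB was at 7629.7, 12724 and 4568 FPKM in the high-intake livers, against 4580.5, 4313 and 4642 FPKM in the control livers and overlapped, while FGG and TF were listed at 0 in T2 alone, which can be a failed estimate. In the other livers FGG lay between 4104 and 7045 FPKM and TF between 3088 and 4991 FPKM. COLEC10, a collectin of innate immunity, was at 14.8, 13.5 and 12.6 FPKM in the high-intake livers, against 49.2, 26.4 and 49.9 FPKM in the control livers, and its relative COLEC11, chosen after its values were seen, at 5.44, 4.29 and 4.36 FPKM in the high-intake livers, against 13.7, 11.6 and 17.1 FPKM in the control livers. The change of COLEC10 was -1.50 ± 0.26 (SE, adjusted p = 0.044). For COLEC11 the log2 change was -1.40 ± 0.19 (SE, adjusted p = 0.029). GPLD1, a plasma enzyme that releases proteins from their lipid anchors, was at 15.9, 10.8 and 9.17 FPKM in the high-intake livers, against 29.3, 31.7 and 46 FPKM in the control livers. GPLD1 thus differed by -1.51 ± 0.26 (SE, adjusted p = 0.043) on the log2 scale. The 3 secreted proteins were lower in each high-intake liver than in any control, as was every gene called lower.

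Enzymes and regulators made up the other large falls. PHKA2, the regulatory subunit of phosphorylase kinase that governs glycogen breakdown in liver, was at 2.29, 2.51 and 2.51 FPKM in the high-intake livers, against 10.5, 8.24 and 9.68 FPKM in the control livers; PPEF1 lies antisense to it. In log2 terms PHKA2 changed by -1.60 ± 0.16 (SE, adjusted p = 0.021). UGT2B17, which in humans conjugates steroids with glucuronic acid, was at 35.8, 41.6 and 67.2 FPKM in the high-intake livers, against 139, 138 and 143 FPKM in the control livers. The change of UGT2B17 was -1.57 ± 0.25 (SE, adjusted p = 0.038). IP6K2, an inositol phosphate kinase, was at 44.2, 30.1 and 23.1 FPKM in the high-intake livers, against 126, 78.8 and 104 FPKM in the control livers. For IP6K2 the log2 change was -1.66 ± 0.28 (SE, adjusted p = 0.043). EPAS1, a hypoxia-inducible transcription factor strong in endothelium, was at 28.2, 25 and 60.7 FPKM in the high-intake livers, against 164, 158 and 138 FPKM in the control livers. EPAS1 thus differed by -2.10 ± 0.33 (SE, adjusted p = 0.038) on the log2 scale. TINAG, a basement membrane protein, was at 29.7, 17.2 and 23.3 FPKM in the high-intake livers, against 88.3, 72 and 83 FPKM in the control livers, KLHDC1, a kelch-repeat protein, at 8.02, 7.37 and 8.26 FPKM in the high-intake livers, against 32.9, 32.1 and 22.2 FPKM in the control livers, and the semaphorin SEMA6D at 1.56, 1.55 and 2.5 FPKM in the high-intake livers, against 6.46, 9.39 and 5.74 FPKM in the control livers. In log2 terms TINAG changed by -1.78 ± 0.23 (SE, adjusted p = 0.029). The change of KLHDC1 was -1.74 ± 0.19 (SE, adjusted p = 0.022). For SEMA6D the log2 change was -1.51 ± 0.23 (SE, adjusted p = 0.033). In all 7 genes, as in every gene called lower, the highest high-intake liver was below the lowest control. LOC106035426, a monocarboxylate transporter 2-like gene chosen after its values were seen, was at 5.01, 4.63 and 7.75 FPKM in the high-intake livers, against 30.9, 45.2 and 39 FPKM in the control livers. LOC106035426 thus differed by -2.55 ± 0.23 (SE, adjusted p = 0.018) on the log2 scale.

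Of 41 nuclear receptors, metabolic transcription factors and clock genes tested, 10 were above 0 (median -0.31), against 52.9% of all genes. In this list 1 was called, a fall (2.44%, against 2.19% of all genes in either direction and 0.919% called lower). HNF4G, a receptor-type transcription factor of liver and gut, was at 4.38, 2.54 and 5.02 FPKM in the high-intake livers, against 10.7, 11.8 and 12.2 FPKM in the control livers. In log2 terms HNF4G changed by -1.37 ± 0.22 (SE, adjusted p = 0.04). PPARA, which switches on fatty acid oxidation in fasting, was lower in each high-intake liver than in any control and did not pass (97.6, 54.3 and 112 FPKM in the high-intake livers, against 148, 155 and 169 FPKM in the control livers, adjusted p = 0.12). NR1H4, the bile acid receptor, averaged 25.9 ± 7.52 FPKM in high-intake livers and 36.8 ± 15.1 FPKM in control livers and overlapped. NR1H3, the oxysterol receptor, averaged 46.6 ± 13 FPKM in high-intake livers and 34.2 ± 3.97 FPKM in control livers. In insulin, growth factor and hormone signalling 23 of 50 were above 0 (median -0.11). In that list 1 gene was called (2%, against 2.19% of all genes in either direction and 0.919% called lower). It was SOCS1, a brake on cytokine receptors, which fell, at 2.75, 2.35 and 1.26 FPKM in the high-intake livers, against 7.66, 8.59 and 5.66 FPKM in the control livers. The change of SOCS1 was -1.43 ± 0.24 (SE, adjusted p = 0.043). PIK3R1, a regulatory subunit of the kinase downstream of the insulin receptor, was at 33.1, 35.1 and 51.6 FPKM in the high-intake livers, against 84, 79.8 and 89.3 FPKM in the control livers, and just missed the threshold (adjusted p = 0.0505). GHR, the growth hormone receptor, averaged 239 ± 16.4 FPKM in high-intake livers and 284 ± 19.7 FPKM in control livers. DIO2, which activates thyroid hormone, was scattered in both groups, at 21.4, 30.5 and 60.5 FPKM in high-intake and 78.5, 13 and 285 FPKM in control livers.

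Inflammation and acute phase genes were not called, with 18 of 26 above 0 and a median of 0.26. LECT2, a liver protein that attracts leukocytes, was at 1424, 5197 and 3051 FPKM in the high-intake livers, against 449, 129 and 448 FPKM in the control livers, and its change of 3.25 ± 0.64 (SE, adjusted p = 0.052) missed the threshold although every high-intake liver was above every control. LEAP2, a ligand of the ghrelin receptor, was highest in T3, at 71.4, 57.6 and 233 FPKM in high-intake and 91.4, 86.2 and 48.7 FPKM in control livers. IL6ST, the shared receptor of the interleukin 6 family, averaged 45.2 ± 9.93 FPKM in high-intake livers and 35.6 ± 4.3 FPKM in control livers. LOC106049124, annotated as MRP-126, a calprotectin-like protein of avian leukocytes, was chosen after its values were seen and was at 71.6, 334 and 140.2 FPKM in the high-intake livers, against 5.09, 9.46 and 20.9 FPKM in the control livers. For LOC106049124 the log2 change was 3.76 ± 0.64 (SE, adjusted p = 0.043). The heterophil and thrombocyte markers had 4 of 6 above 0 (median 0.13) and none called. Of the 16 lymphocyte markers CD8A was the 1 called (6.25%, against 2.19% of all genes). CD8A, the co-receptor of cytotoxic T cells, was at 0.876, 0.557 and 0.316 FPKM in the high-intake livers, against 1.82, 1.8 and 1.71 FPKM in the control livers. CD8A thus differed by -0.82 ± 0.15 (SE, adjusted p = 0.048) on the log2 scale. The next genes of lymphocytes were chosen after their values were seen and did not move one way. SKAP1, an adaptor of T cell receptor signals, rose, at 21.6, 13.5 and 15.3 FPKM in high-intake and 2.58, 4.38 and 3.54 FPKM in control livers. The other 3 fell. IL7R, a survival receptor of T cells, was at 1.25, 1.41 and 1.01 FPKM in high-intake and 3.4, 2.76 and 4.54 FPKM in control livers. The granzyme K-like LOC106035583 was at 0.186, 0.197 and 0.159 FPKM in high-intake and 1.21, 2.04 and 2.22 FPKM in control livers. The chemokine 5-like LOC106041040 was at 3.11, 1.58 and 2.5 FPKM in the high-intake livers, against 7.67, 8.14 and 8.93 FPKM in the control livers. In log2 terms LOC106041040 changed by -1.47 ± 0.21 (SE, adjusted p = 0.029).

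Of 40 extracellular matrix genes 14 were above 0 (median -0.19) and 2 fell. This was 5% of the list, against 0.919% of all genes called lower and 2.19% in either direction. DCN, the collagen-binding proteoglycan decorin, was at 87.1, 79.7 and 121 FPKM in the high-intake livers, against 269, 193 and 280.1 FPKM in the control livers. The change of DCN was -1.36 ± 0.25 (SE, adjusted p = 0.046). ADAMTS18, a secreted metallopeptidase with an antisense neighbour, was at 1.93, 0.608 and 2.76 FPKM in the high-intake livers, against 8.72, 10.2 and 23.7 FPKM in the control livers. For ADAMTS18 the log2 change was -2.41 ± 0.43 (SE, adjusted p = 0.045). POSTN, a matrix protein of fibroblasts, was below every control and not called, at 57.6, 40.7 and 70.9 FPKM in high-intake and 98.8, 97.9 and 167 FPKM in control livers. FN1, which hepatocytes also make, averaged 159 ± 54.4 FPKM in high-intake livers and 116 ± 19.3 FPKM in control livers and overlapped. Among stellate cell, fibroblast and smooth muscle markers 3 of 12 were above 0 (median -0.29), and DCN was the member called (8.33%, against 2.19% of all genes). These markers summed to 178, 144 and 176 FPKM in T1, T2 and T3, against 384, 251 and 419.9 FPKM in C1, C2 and C3.

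Endothelial markers had the lowest share of members above 0 of the liver cell types, 4 of 25, with a median of -0.54 and 12 at an unadjusted p under 0.05 in the downward direction. Among all 11752 genes tested, 1323 had such a p in that direction, and 52.9% were above 0. The endothelial markers summed to 143, 137 and 116 FPKM in T1, T2 and T3, against 207, 173 and 269.8 FPKM in C1, C2 and C3. EMCN, the endothelial sialomucin endomucin, was the 1 marker called (4% of the list, against 2.19% of all genes). It was at 2.13, 1.86 and 2.06 FPKM in the high-intake livers, against 7.75, 4.61 and 6.42 FPKM in the control livers. EMCN thus differed by -1.25 ± 0.20 (SE, adjusted p = 0.038) on the log2 scale. Hepatocyte markers themselves had 5 of 13 above 0 and a median of -0.35, none called. Their summed level went the other way, at 34118, 35663 and 23278 FPKM in T1, T2 and T3, against 23114, 22300 and 22546 FPKM in C1, C2 and C3. FERMT2, an adaptor of integrins, was at 7.83, 5.88 and 3.57 FPKM in the high-intake livers, against 8.24, 10.6 and 12.2 FPKM in the control livers, overlapping between T1 and C1, and its change of -0.78 ± 0.27 (SE, adjusted p = 0.14) did not pass. What share of the matrix, vessel and EPAS1 falls goes with these markers was not tested.

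The response of liver was set against that of adipose tissue of the same geese by testing the difference of the feeding changes, with goose as a block. Against abdominal adipose 9 of 12445 genes differed (0.0723%), and against subcutaneous adipose 219 of 12755 (1.72%). GPT2 was low in abdominal adipose, at 7.74, 3.49 and 3.13 FPKM in high-intake and 2.04, 0.752 and 1.17 FPKM in control geese, and its change in liver exceeded that there by 3.25 on the log2 scale (adjusted p = 0.025). CDHR5 stayed below 1 FPKM in all 12 adipose libraries. RBP7 was abundant in abdominal adipose of both groups (3286, 2127 and 3347 FPKM in high-intake, 2383, 2136 and 2203 FPKM in control geese), and its change in liver was larger by 3.59. SOCS1 went the other way, lower in high-intake livers and at 10.3, 8.68 and 6.02 FPKM in abdominal adipose of high-intake geese against 4.65, 3.47 and 4.27 FPKM in that of control geese, a difference of -2.27.

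FADS1 and FADS2 passed the test against subcutaneous adipose, with differences of 3.02 and 3.38 (adjusted p = 0.005 and 0.00088). FADS1 was at 3.91, 2.78 and 4.11 FPKM in subcutaneous adipose of high-intake geese and 3.93, 1.65 and 2.99 FPKM in that of controls. Against abdominal adipose the differences were 2.42 for FADS1 and 2.43 for FADS2 and missed the threshold. The depots were not tested against each other. PLIN2 did not differ by this test in either fat depot. The counts changed with the goose left out, and the part of having 1 bird fewer was not tested. Without goose C2 none was called against abdominal adipose, with 1456 at an unadjusted p under 0.05, and 8 against subcutaneous adipose. Without goose C1 they were 1 and 525, and without goose C3 2 and 280. Without goose T1 they were 6 and 330, without goose T2 28 and 315, and without goose T3 7 and 310. The study proposes that the subcutaneous sample of C2 held some other tissue, such as skin.

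Of the lncRNAs, 10 of 812 changed (1.23%; limma on log2(FPKM + 0.1)), 6 higher (0.739%) and 4 lower (0.493%). Without overlap, 66 (8.13%) were higher and 168 (20.7%) lower in high-intake livers, and the median over all lncRNAs was -0.29, or -0.09 after each library was centred on its own median. XLOC_083589, on scaffold NW_013185670.1:6138915-6140524 of the goose assembly, was at 40.9, 3.36 and 8.6 FPKM in the high-intake livers, against 0, 0 and 0 FPKM in the control livers and was listed at 0 in all 12 adipose libraries; SENP5, the nearest protein-coding gene, lies 52678 bases away and was not called, at 18.2, 19.9 and 23 FPKM in high-intake and 17.7, 19.7 and 17.5 FPKM in control livers. XLOC_194743 (NW_013185721.1:3540660-3553005) was at 1.1, 1.25 and 0.386 FPKM in the high-intake livers, against 0, 0 and 0 FPKM in the control livers (adjusted p = 0.035). Its nearest gene, SNTB1, a syntrophin that anchors membrane proteins to the cytoskeleton, lies 50325 bases away and was itself called, at 11.8, 22.9 and 15.5 FPKM in the high-intake livers, against 2.32, 2.96 and 4.35 FPKM in the control livers. In log2 terms SNTB1 changed by 2.05 ± 0.28 (SE, adjusted p = 0.029). It was the only called gene among the nearest neighbours of the 10 lncRNAs.

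**Figure D4:**
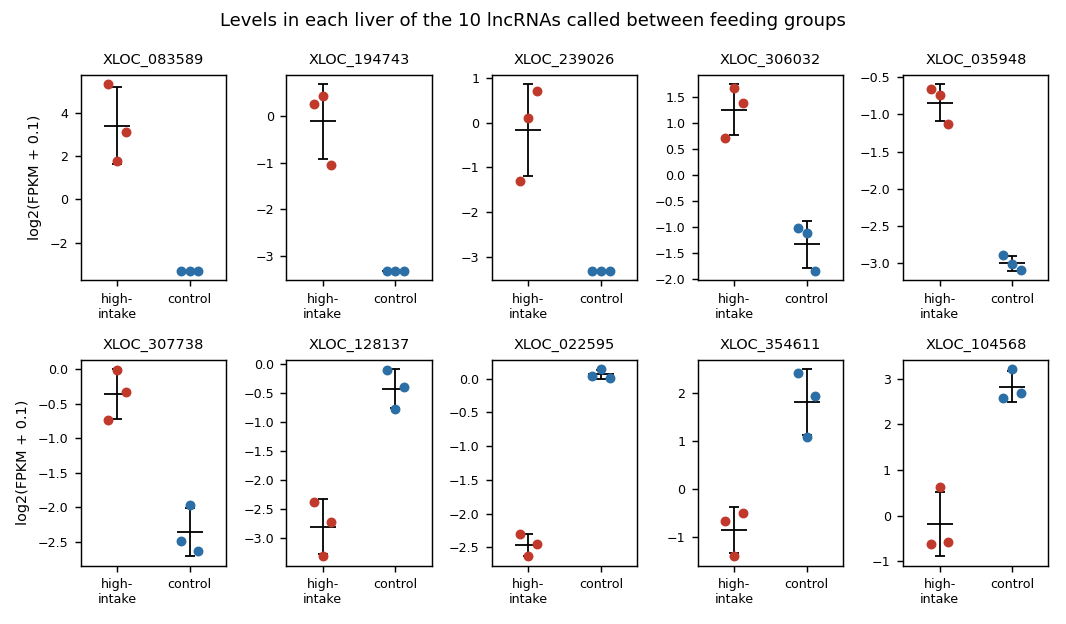
Level of the 10 called lncRNAs in each liver, as log2(FPKM + 0.1), high-intake livers left of control livers, with bars for the mean and SD. The 6 higher and 4 lower lncRNAs separate the groups completely, and XLOC_083589, XLOC_194743 and XLOC_239026 are listed at 0 in all 3 control livers.

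The other 4 higher lncRNAs lay near or within annotated genes. XLOC_239026 (NW_013185753.1:474103-476931), 1467 bases from a chemokine 4-like gene, was at 0.303, 0.975 and 1.53 FPKM in the high-intake livers, against 0, 0 and 0 FPKM in the control livers (adjusted p = 0.042). No fold is given for the 3 lncRNAs whose controls are all listed at 0. XLOC_306032 (NW_013185836.1:1519057-1524539) lies within an intron of NEDD4L, a ubiquitin ligase, and was at 1.55, 3.11 and 2.5 FPKM in the high-intake livers, against 0.396, 0.363 and 0.18 FPKM in the control livers, while NEDD4L was at 8.89, 8.43 and 9.94 FPKM in high-intake and 7.07, 7.85 and 6.62 FPKM in control livers. The change of XLOC_306032 was 2.58 ± 0.39 (SE, adjusted p = 0.035). The groups did not overlap for either NEDD4L or its inner lncRNA, but the host was not called. XLOC_035948 (NW_013185659.1:6589014-6591505) overlaps the annotated noncoding gene LOC106049763 and lies 8623 bases from SCCPDH. It was at 0.533, 0.501 and 0.358 FPKM in the high-intake livers, against 0.035, 0.0237 and 0.017 FPKM in the control livers. For XLOC_035948 the log2 change was 2.16 ± 0.32 (SE, adjusted p = 0.035). XLOC_307738 (NW_013185840.1:570052-576315), 1102 bases from the stress gene GADD45G, was at 0.501, 0.889 and 0.694 FPKM in the high-intake livers, against 0.0774, 0.155 and 0.0618 FPKM in the control livers, and GADD45G itself overlapped between the groups. XLOC_307738 thus differed by 2.0 ± 0.35 (SE, adjusted p = 0.047) on the log2 scale.

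Among the lower lncRNAs, 2 lay in introns of genes whose values were also lower, though neither gene was called. GALK2 and COG6, the nearest genes of the other 2, were likewise lower in each high-intake liver than in any control and not called. GALK2 was at 6.95, 7.3 and 7.64 FPKM in high-intake and 8.22, 9.4 and 10.3 FPKM in control livers. COG6 was at 4.75, 4.69 and 7.02 FPKM in high-intake and 9.18, 8.33 and 8.47 FPKM in control livers. Of all genes tested 15.4% were lower in this way. XLOC_022595 (NW_013185656.1:17395531-17403143), within ROBO2, a guidance receptor, was at 0.103, 0.0613 and 0.0829 FPKM in the high-intake livers, against 0.932, 1 and 0.905 FPKM in the control livers; ROBO2 was at 1.78, 0.298 and 1.88 FPKM in the high-intake livers, against 7.1, 5.73 and 3.04 FPKM in the control livers and not called (adjusted p = 0.086). In log2 terms XLOC_022595 changed by -2.52 ± 0.28 (SE, adjusted p = 0.023). XLOC_128137 (NW_013185687.1:4718955-4723832), within LDLRAD4, an inhibitor of TGF-beta signals, was at 0.0914, 0 and 0.051 FPKM in the high-intake livers, against 0.826, 0.485 and 0.658 FPKM in the control livers. LDLRAD4 was at 6.94, 5.56 and 3.79 FPKM in high-intake and 17, 10.1 and 7.34 FPKM in control livers and not called (adjusted p = 0.14). The change of XLOC_128137 was -2.38 ± 0.37 (SE, adjusted p = 0.036). Reads of unspliced host transcripts and of an lncRNA in the intron cannot be told apart here. XLOC_104568 (NW_013185678.1:267523-277063), 10465 bases from GALK2, was at 0.552, 1.44 and 0.571 FPKM in the high-intake livers, against 5.86, 9.13 and 6.36 FPKM in the control livers, and XLOC_354611 (NW_013186003.1:328718-330974), 12976 bases from COG6, at 0.526, 0.276 and 0.609 FPKM in the high-intake livers, against 5.3, 2.02 and 3.75 FPKM in the control livers. For XLOC_104568 the log2 change was -3.01 ± 0.43 (SE, adjusted p = 0.035). XLOC_354611 thus differed by -2.68 ± 0.45 (SE, adjusted p = 0.042) on the log2 scale. Leaving out C1 or C3 left no lncRNA called, with 102 and 141 at an unadjusted p under 0.05, and 3 were called without T1 and 5 without T3.

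Of the genes named here, GPT2, CDHR5, RBP7, FADS1 and EAF2 were each called in 5 of the 6 fits that left out 1 liver. CDK1, SPC25, SKAP1, TMEM45A, PDLIM1, KLHDC1, PHKA2 and LOC106035426 were called in 4, and the rises of MKI67, KIF15, SEC23A, CTSC and LOC106049124 and the falls of SOCS1, ITIH3, CFI, CD8A, IL7R, EMCN, GPLD1 and IP6K2 in none. Across these fits the change of GPT2 lay between 4.17 and 4.77 and that of FADS1 between 3.03 and 3.55. That of PLIN2 lay between 1.62 and 1.80 and that of RGN between -3.41 and -2.36. Where the groups do not overlap, as in every called gene, leaving out 1 liver cannot reverse the direction.

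**Figure D5:**
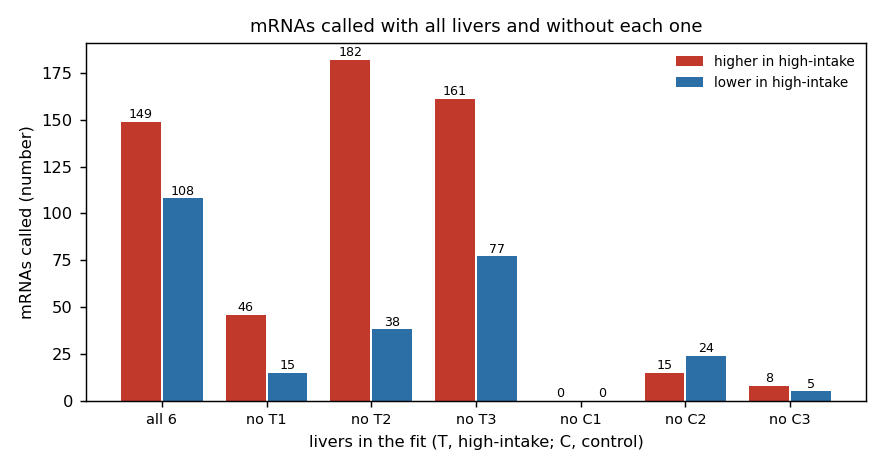
Number of protein-coding genes called higher and lower in liver with all 6 livers and with each liver left out in turn. The counts run from 0 without C1 to 238 without T3, against 257 with all 6.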

How the data were processed

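Total RNA of the 6 livers was sequenced after ribosomal RNA removal. Per the labels and the study's methods, reads were mapped to the goose AnsCyg assembly with Bowtie2 and TopHat2 2.12 and levels estimated with Cufflinks 2.1.1. The birds were hybrids, and the effect of mapping their reads to this assembly was not tested. The study tested feeding with Cuffdiff, and the authors' test results were not used here. The deposited values are log2(FPKM + 1), a scale read from the values, and were turned back to FPKM. The number of reads behind a value is not known. RNA was isolated with Trizol per the labels and with another kit per the study's methods. Whether counting used strand is not given in the sources used here, so reads of overlapping genes on opposite strands cannot be told apart. Names came from the annotation by gene ID, 764 of them through an external table, whose names can differ from the annotated product (CYP51A1 in the cholesterol list does).

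Differences were tested with limma 3.58.1 in R 4.3.3 (moderated test with trend, 2-sided, Benjamini-Hochberg over all genes, threshold 0.05) on log2(FPKM + 1) for genes and log2(FPKM + 0.1) for lncRNAs, with a mean FPKM above 0.1 over the 6 livers. An exact permutation test of 3 against 3 cannot go below p = 0.1. The replicate numbers name different geese in the 2 feeding groups and do not pair livers; between tissues they name the same goose. The text names the 12 largest rises and the 12 largest falls with a symbol, a mean FPKM above 1 and no overlap, every called member and the 3 most abundant members of each list, 8 genes the study discusses, and every called lncRNA. Some abundant list members are not reported here. The members, lists and tests were chosen with earlier results of these data known. On simulated data for 11752 genes the test recovered 84% of genes changed by 2 on the log2 scale and 42% of those changed by 1, and of 169 calls 10 were false. The changed genes were drawn from those with a mean log2(FPKM + 1) above 2, so recovery at lower levels was not tested. Values were drawn independently for each gene, with the same SD in both groups. In the livers 66.4% of genes had the larger SD among high-intake birds, so these shares describe the simulation only. For 812 simulated lncRNAs, changed where the mean log2(FPKM + 0.1) was above 0, it recovered 40% of changes of 2 and 0% of changes of 1. Alternatives changed the pseudocount, filter, centring, trend, samples and block, and left out each bird.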

Additional observations from a re-analysis of the deposited data

Results flagged for a closer look

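The results below are genes whose feeding change in liver differed from that in adipose tissue of the same geese by the interaction test (limma, goose as a block, adjusted p under 0.05), each given as the log2 change in liver minus that in the fat depot.

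Against abdominal adipose the difference was 3.593 for RBP7, 3.928 for CDHR5, 3.246 for GPT2 and 1.899 for SKAP1, an adaptor of T cell receptor signals. It was -2.274 for SOCS1 and -2.836 for LOC106033299, a carboxylesterase 5A-like gene at 13, 10.1 and 31 FPKM in the high-intake livers, against 117, 129.9 and 122 FPKM in the control livers. For GABRA4 (-2.901), OCA2 (-2.94) and CHODL (-2.42) the difference came from the fat, since all 3 were listed at or near 0 in every liver. In abdominal adipose GABRA4, a subunit of a GABA receptor, was at 14.4, 14.1 and 20.1 FPKM in high-intake geese, against 1.16, 1.99 and 0.853 FPKM in control geese. OCA2, a melanosome transporter, was there at 5.07, 8.6 and 10.8 FPKM in high-intake geese, against 0.110, 0.165 and 0.197 FPKM in control geese. CHODL, a lectin-like membrane protein, was there at 10.2, 6.91 and 7.93 FPKM in high-intake geese, against 0.972, 0.638 and 0.623 FPKM in control geese.

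Against subcutaneous adipose the difference was 4.261 for CDHR5, 3.913 for GPT2, 3.092 for RBP7, 3.381 for FADS2 and 3.024 for FADS1. It was 3.025 for CYP2W1, 2.383 for GLDC, 2.597 for APCDD1 and 2.263 for GOLM1. For FABP1 it was 2.569 on the log2(FPKM + 1) scale, with the control livers listed at 0, so this value depends on the pseudocount. Negative differences were found for ADAMTS18 (-2.69), SOCS1 (-2.175), PHKA2 (-1.889) and COLEC10 (-2.014). Without goose C2, whose subcutaneous library stood apart from the others, 8 genes in all differed, 2 with a positive and 6 with a negative difference. With it 219 differed, 115 with a positive and 104 with a negative difference.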

How the results depend on the processing

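Of the 257 genes called in liver, 246 were also among the 291 called with a pseudocount of 0.1, 250 among the 304 called after median centring and 222 among the 272 called without the trend. Without a filter on low values 110 genes were called, and with all 18 libraries in the fit 490, of which 188 were shared. Leaving out 1 liver gave between 0 and 238 genes. For the lncRNAs the count of 10 became 0 with a pseudocount of 1 (142 at an unadjusted p under 0.05), 2 without a filter, 64 with all 18 libraries, and between 0 and 9 with 1 liver left out. The difference from abdominal adipose was called for 17 genes without the replicate block and for 0 to 28 with 1 goose left out. The difference from subcutaneous adipose was called for 69 genes after median centring, of which 55 were among the 219, for 27 without the replicate block, and for 8 to 525 with 1 goose left out. The cause of these changes was not tested.

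With the replicate number as a block in the liver fit, 1 gene and 0 lncRNAs passed (150 lncRNAs at an unadjusted p under 0.05); the numbers pair no livers, and deviations of same-numbered livers correlated at -0.05, -0.09 and -0.03. Of the 74 genes and lncRNAs followed, PGM1, which was not called, changed sign with 1 liver left out, its values lying between -0.28 (without T1; -0.20 without C3) and 0.48. For the 66 of them that were called, the call was lost in 288 of 396 such fits. No direction changed, which was fixed beforehand, since their groups do not overlap. Of 468 list medians under alternatives 16 changed sign, in 9 of 36 lists, among them cholesterol synthesis, gluconeogenesis, triacylglycerol assembly and mitochondrially encoded proteins. At 3 livers per group the simulated test found fewer than 1 in 2 changes of 1 on the log2 scale, so genes not called cannot be taken as unchanged.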

Other observations

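The next 6 genes, known from blood vessels or from BMP signals, were picked by hand after their values were seen. Of these 5 fell and 1 rose, which is no tally of vessel genes. Other called genes, among them EMCN and EPAS1, were left out of this count. Among all genes tested 1.27% were called higher and 0.919% lower. Of 25 endothelial markers 21 were below 0 (median -0.54). Those markers summed to 143, 137 and 116 FPKM in T1, T2 and T3, against 207, 173 and 269.8 FPKM in C1, C2 and C3, and their part in these changes was not tested. DLL4, the Notch ligand of sprouting vessels, was at 3.05, 1.97 and 3.09 FPKM in the high-intake livers, against 6.92, 6.83 and 9.12 FPKM in the control livers. In log2 terms DLL4 changed by -1.22 ± 0.20 (SE, adjusted p = 0.04). ANGPT1, which stabilises vessels through the receptor TEK, was at 1.1, 1.85 and 1.33 FPKM in the high-intake livers, against 4.7, 3.75 and 7.95 FPKM in the control livers. The change of ANGPT1 was -1.37 ± 0.26 (SE, adjusted p = 0.049). GDF2 and BMP10, ligands of the endothelial receptor ALK1, were at 1.33, 2.59 and 1.44 FPKM in the high-intake livers, against 6.99, 5.38 and 5.35 FPKM in the control livers for GDF2, and at 0.867, 0.502 and 1.32 FPKM in the high-intake livers, against 2.71, 3.05 and 2.9 FPKM in the control livers for BMP10. For GDF2 the log2 change was -1.33 ± 0.22 (SE, adjusted p = 0.04). BMP10 thus differed by -1.06 ± 0.18 (SE, adjusted p = 0.044) on the log2 scale. ID3, annotated as a DNA-binding inhibitor ID-3-A-like gene and a target of BMP signals in other vertebrates, was at 44, 34.4 and 17.9 FPKM in the high-intake livers, against 156, 109 and 126 FPKM in the control livers. In log2 terms ID3 changed by -2.06 ± 0.33 (SE, adjusted p = 0.039). VASH1, an inhibitor of vessel growth, rose, at 99.2, 61.6 and 108 FPKM in the high-intake livers, against 23.6, 25.2 and 16.1 FPKM in the control livers. The change of VASH1 was 1.98 ± 0.27 (SE, adjusted p = 0.029). As in every called gene, no high-intake liver overlapped a control liver in any of these 6 genes. Since they were chosen for their change, they are a description of the called genes and no test of a pathway.

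The next called genes were also picked for their fall after their values were seen, so they are no test of a pathway. All but OGT are known from the splicing or processing of RNA. CLK1, a kinase of splicing factors, was at 11.4, 12 and 10.4 FPKM in the high-intake livers, against 27.2, 23.3 and 38.6 FPKM in the control livers, and RSRP1, an arginine- and serine-rich protein, at 12.2, 8.92 and 9.8 FPKM in the high-intake livers, against 29.5, 24.8 and 30.8 FPKM in the control livers. For CLK1 the log2 change was -1.30 ± 0.21 (SE, adjusted p = 0.04). RSRP1 thus differed by -1.38 ± 0.18 (SE, adjusted p = 0.029) on the log2 scale. LUC7L3 (5.47, 5.03 and 5.01 FPKM in high-intake and 12.8, 10.4 and 11.3 FPKM in control livers), YTHDC1 (8.3, 8.71 and 9.05 FPKM in high-intake and 17.5, 15.1 and 18.5 FPKM in control livers), HNRNPDL (18.5, 15.8 and 19 FPKM in high-intake and 33.8, 31.8 and 34.9 FPKM in control livers) and PCF11 (4.4, 3.92 and 4.17 FPKM in high-intake and 8.49, 8.59 and 9.38 FPKM in control livers) were likewise lower in each high-intake liver than in any control. OGT, which puts N-acetylglucosamine on nuclear proteins, was at 5.04, 4.85 and 5.95 FPKM in the high-intake livers, against 11.1, 10.8 and 10.5 FPKM in the control livers. In log2 terms OGT changed by -0.91 ± 0.15 (SE, adjusted p = 0.041). CLK1 and RSRP1 overlap other annotated genes, PPIL3 and SYF2.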
